A study of Rattus norvegicus with 2 samples.

Results

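Circular RNAs (circRNAs) hosted by ion channel genes were examined in rat spinal cord. A circRNA is a closed loop in which the end of an exon is spliced to the beginning of the same or an earlier exon, and it is counted by reads that cross this back-splice junction. The set holds the circRNAs of genes named as potassium, sodium, HCN, calcium, TRP, P2X, ryanodine receptor, chloride or anoctamin channels, with the sodium leak channel gene Nalcn, chosen by gene symbol alone. The calcium channel genes Cacna1a, Cacna1b, Cacna1c and Cacna1d and the release channel gene Ryr2 were left out by name. The rule found 136 circRNAs of 45 host genes, among 11599 circRNAs and 3865 host genes in the table. The symbol rule also takes in auxiliary subunits (Kcnab1, Cacna2d1, Cacng7 and others) and Trpc4ap, whose product binds a TRP channel and is not one. No circRNA used here carried an Itpr, Asic, Trpv, Kcnj or Kcnd name.

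In the bone cancer pain (BCP) group, live cells of the rat mammary carcinoma line Walker 256 had been put into the marrow of the tibia. The sham group had the same operation with boiled Walker 256 cells, so both groups received tumour cell material. Spinal cord, by the tissue label, was taken 21 days after surgery (the source label of both samples instead names the injected Walker 256 line), with 3 animals described per group, and RNase R was used to digest linear RNA before sequencing. The tumour cells had been grown in the abdominal fluid of SD rats. The age, sex and strain of the operated rats, and whether animals were pooled, were not given in the sources used here. There was 1 library per group, so every ratio compares these 2 libraries and not the conditions, and no replicate check is possible.

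Ion channels set how easily a neuron fires. Potassium channels hold the membrane at rest or bring it back there, sodium and HCN channels drive it toward firing, and calcium channels couple firing to transmitter release. In the dorsal horn of the spinal cord, where signals from bone and skin enter, many of these channels shape pain signalling and several are targets of analgesic drugs. A circRNA is mostly made of exons of its host gene, but its level need not follow that of the channel mRNA, which was not measured here.

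The sham library held 113033 back-splice reads and the BCP library 78836. No count above 0 was smaller than 2 reads in either library, so a 0 in the table does not show absence. All intervals are 95% and take in counting error alone. They treat each read as 1 molecule, which reads lacking molecular identifiers need not be, and may be too narrow. Of the marker lists, neuronal genes (7 of 8 listed) had 1178 reads in sham and 712 in BCP (ratio 0.867, 0.788 to 0.952), mainly from Rims2 (879 and 548) and Elavl3 (246 and 119). Syt1 (4 and 10) was higher in BCP by the size rule defined below, and Rbfox3 had 11 and 15 (1.96, 0.839 to 4.71). Oligodendrocyte genes (3 of 7 listed) had 11 and 45, and microglia and macrophage genes (3 of 6 listed) had 13 and 55. Ganglion neuron and Schwann cell genes (2 of 9 listed) had 0 and 19 reads, and the sensory neuron channel genes Scn10a, Scn11a and Trpv1 had none. Of the muscle list only Dmd was listed (22 and 17 reads), and Ttn, Ryr1 and Cacna1s had none. The astrocyte list had 5 and 3 reads from Slc1a2, with none from Gfap or Aqp4, and vessel genes (3 of 5 listed) had 39 and 34. That sum joins Flt1 (27 and 0), lower by the rule, with Vwf (9 and 24) and Tek (3 and 10), both higher by it. The part of these cell types in the channel results was not tested. In bulk tissue, fewer cells of a type and less circRNA per cell cannot be told apart.

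The ion channel circRNAs took 1155 reads of the sham library and 745 of the BCP library. Their share was 1.02% in sham (exact binomial interval 0.964 to 1.08) and 0.945% in BCP (0.879 to 1.02). Scaled to the library totals, their sum in BCP was 0.925 times that in sham (0.842 to 1.01), an interval that included 1. Median-of-ratios scaling lowered every log2 ratio in the table by 0.10, and the ratio of the sum was then 0.860 (0.783 to 0.944). Ano4 alone held 29.6% of the reads, and Kcnk2, Kcnk10, Kcnma1 and Ano6 followed with 10.4%, 9.84%, 5.58% and 4.95%. Most members were rare: 103 of the 136 had fewer than 10 reads over both libraries. The sham library listed 109 of the members and the BCP library 85, with a median of 4 reads in each.

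**Figure D1:**
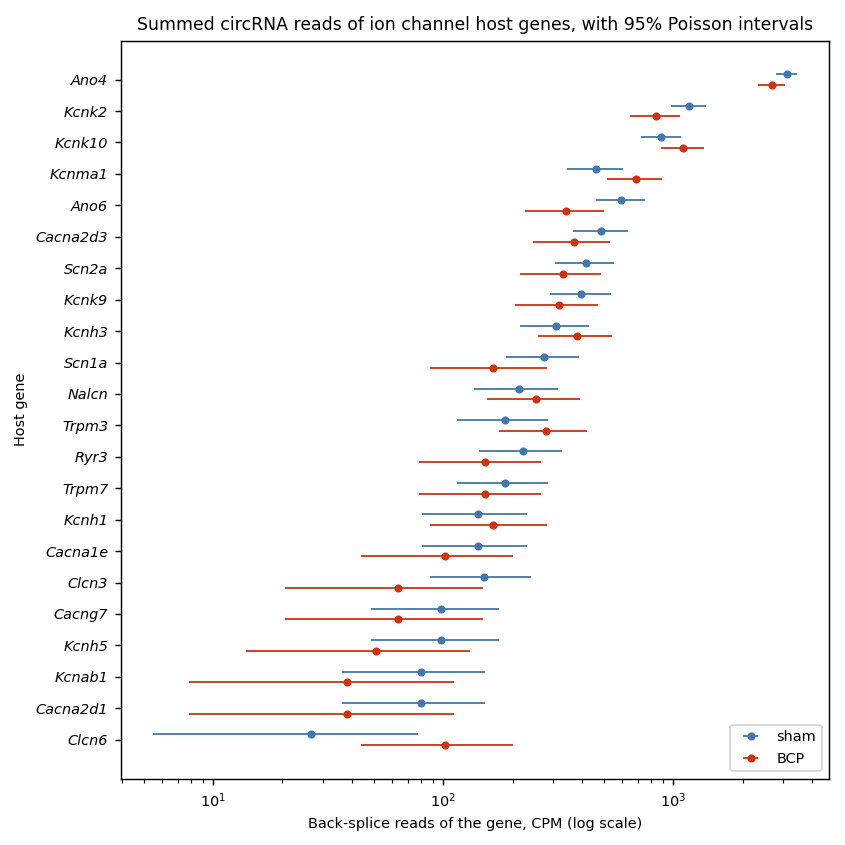
Back-splice reads summed over the circRNAs of each ion channel gene, as reads scaled to the library total (CPM, log axis), for the 22 genes with at least 10 reads and with reads in both libraries, with 95% Poisson intervals (sham blue, BCP red, 1 library each). Ano4 lies above all others in both libraries (3105 and 2676 CPM), and Kcnk2 and Kcnk10 follow.

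Between the libraries, few ion channel circRNAs differed by the size rule. This rule asks for at least 10 reads over both libraries, a ratio of at least 2-fold (with 0.5 reads added to each count) and a conditional exact binomial interval that excludes 1. Of 33 ion channel circRNAs with enough reads, 1 was higher and 1 lower in BCP, and the other 31 met neither side. Over the whole table, 7.82% of 3502 circRNAs were higher, 7.34% were lower and 15.2% were called in either direction. The higher one was hosted by Nalcn and the lower one by Ano4. With median-of-ratios or TMM scaling, 0 were higher and 1 was lower.

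All 33 had reads in both libraries, and their ratios lay between 0.478 and 3.58. In the whole table, 180 of 1702 circRNAs with 10 to 19 reads, and 78 of 1800 with more, were listed in 1 library only. Of the ion channel circRNAs in these ranges, 0 of 15 and 0 of 18 were, numbers too small to set them apart. With 5 to 9 reads, 13 of 38 ion channel circRNAs were, beside 1334 of 2744 in the whole table. The BCP level was below the sham level for 21 of the 33 and above it for 12. Their median log2 ratio was -0.32, beside 0.02 for all 3502. Without the circRNAs of Ano4 and Ano6, which share their hosts, 11 of 21 were below and the median was -0.17.

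**Figure D2:**
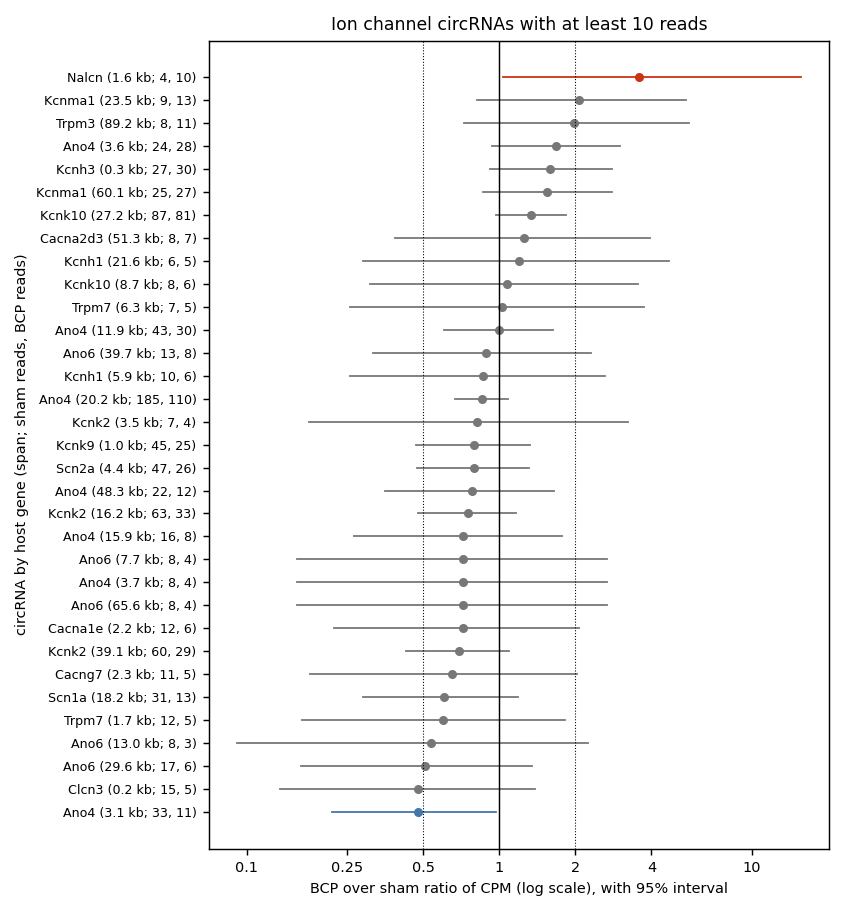
BCP over sham ratio (log axis) with 95% conditional exact intervals for the 33 ion channel circRNAs with at least 10 reads, labelled by host gene, genomic span and reads in sham and BCP. Red marks the Nalcn circRNA that was higher and blue the Ano4 circRNA that was lower by the size rule, grey the other 31, and dotted lines stand at 2-fold.

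**Figure D3:**
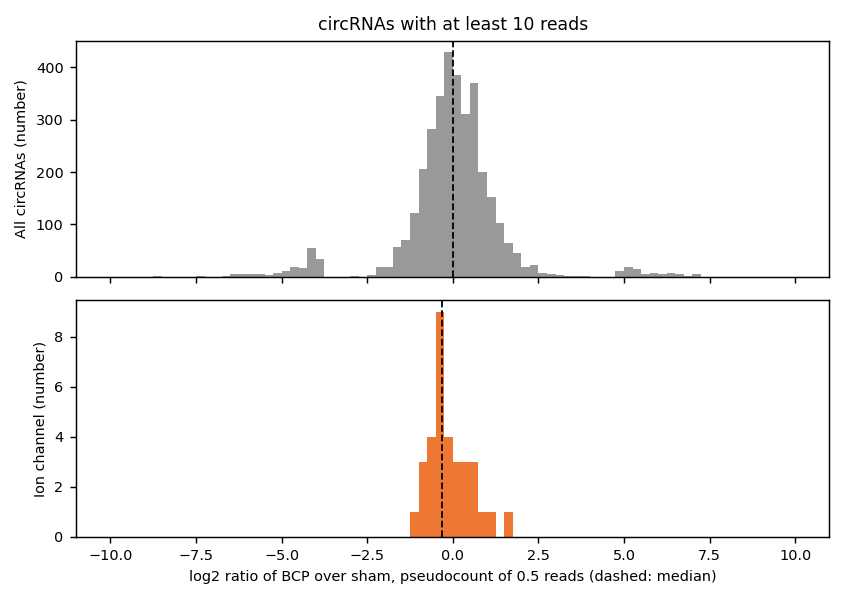
Distribution of the log2 ratio of BCP over sham for all 3502 circRNAs with at least 10 reads (top, grey) and for the 33 ion channel ones (bottom, orange), with medians of 0.02 and -0.32 as dashed lines. The outer humps of the upper panel are circRNAs listed in 1 library only, and none of the 33 plotted ion channel circRNAs lies there.

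Anoctamins are calcium-activated membrane proteins, of which some conduct chloride and others move lipids between the leaflets of the membrane. Together with the Clcn chloride transporters they held 37.2% of the ion channel reads. The class summed to 453 sham reads and 254 BCP reads, a ratio of 0.804 (0.687 to 0.940). With circRNAs listed in both libraries alone, the class ratio was 0.849 (0.722 to 0.997). Of its 13 circRNAs with at least 10 reads, 11 were below the sham level, 1 of them by the size rule, and 0 were higher by the rule. Over the whole table, 1743 of 3502 were below the sham level. All of the 13 except the Clcn3 one were hosted by Ano4 or Ano6, so they do not count as separate genes of the class.

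Ano4 had 15 circRNAs with 351 sham reads and 211 BCP reads (3105 and 2676 CPM, ratio 0.862, 0.723 to 1.03), an interval that included 1. Its main product spanned 20.2 kb on chromosome 7 (29603869 to 29624094, build rn6) and had 185 and 110 reads. It ranked 44 among all 11599 circRNAs. This circRNA made up 52.7% of the Ano4 reads in sham (47.3 to 58.0) and 52.1% in BCP (45.2 to 59.0), shares that differed by less than counting error. The circRNA that was lower in BCP spanned 3.14 kb (29653290 to 29656429) and had 33 and 11 reads, 2.09-fold lower (1.03 to 4.59). It stood just inside the rule, and a pseudocount of 1 read in place of 0.5 ended the call. A Clcn3 circRNA stood outside the rule, with the same 2.09-fold lower level at fewer reads and an interval that included 1 (below).

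The other Ano4 circRNAs with at least 10 reads had higher ratios than that one. Those from the same start, at 29653290, reached 29665234 with 43 and 30 reads (ratio 1.00, 0.606 to 1.63) and 29701551 with 22 and 12 (0.782, 0.353 to 1.65). A 3.60 kb circRNA inside the main one (29620498 to 29624094) had 24 and 28 reads, a ratio of 1.67 (0.935 to 3.01). Its share of the Ano4 reads was 6.84% in sham (4.43 to 10.003) and 13.3% in BCP (9.00 to 18.6), an odds ratio of 2.08 (1.13 to 3.87). Such shares do not depend on how the libraries are scaled. Circles of 15.9 kb (16 and 8 reads) and 3.66 kb (8 and 4) had a ratio of 0.717 each, with intervals that included 1.

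The Ano4 circRNAs reused few splice positions. The 15 had 8 starts and 9 ends, and the start at 29603869 served 4 of them with 55.9% of the Ano4 reads. The end at 29624094 also served 4, with 63.7%. The start at 29603869 lies 132 bp before an end at 29604000 that closes 2 other Ano4 circRNAs, so the stretch between these positions opens some circles and closes others. Exon annotation of build rn6 was not used here.

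**Figure D4:**
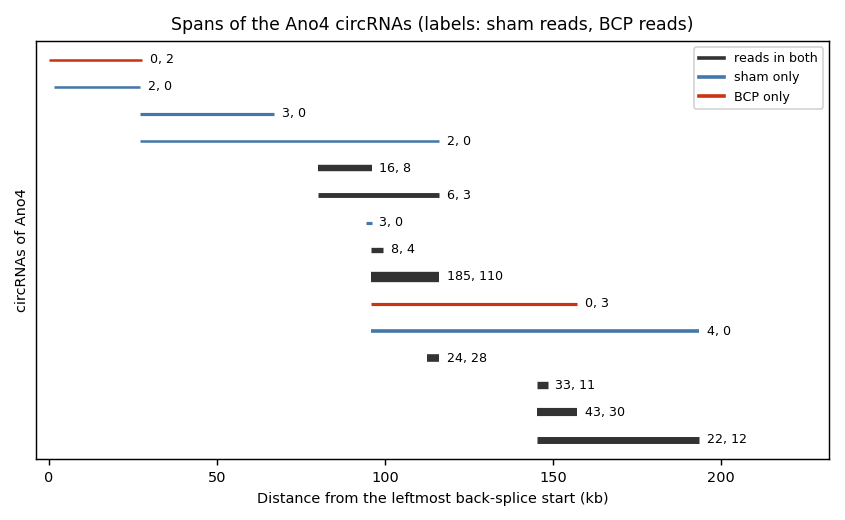
Genomic spans of the 15 Ano4 circRNAs in kb from the leftmost back-splice start, with line width growing with reads and labels giving reads in sham and BCP (black, both libraries; blue, sham only; red, BCP only). The circRNA with 185 and 110 reads lies between 2 shared ends, and the trio at the right shares 1 start.

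Ano6, whose product is the lipid scramblase of platelets, had 9 circRNAs with 67 and 27 reads, 1.73-fold lower in BCP (1.09 to 2.82). The interval excluded 1 but the ratio missed 2-fold, and with circRNAs listed in both libraries alone (54 and 25 reads) the ratio was 0.664 (0.396 to 1.09). Its 5 circRNAs with at least 10 reads were all below the sham level. They spanned 39.7 kb (13 and 8 reads), 29.6 kb (17 and 6), 65.6 kb (8 and 4), 7.69 kb (8 and 4) and 13.02 kb (8 and 3). None met the size rule, and the lowest ratio was 0.506 (0.163 to 1.35).

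Ano3 had 3 circRNAs with 4, 4 and 2 sham reads and was at 0 in BCP. Its product is known to associate with the sodium-activated potassium channel Kcnt1 in sensory neurons. The sum of 10 reads met the size rule as lower in BCP, although no single Ano3 circRNA had enough reads to be tested. Of all 2144 host genes with enough reads, 8.49% were lower. All 10 reads were of the sham library, so Ano3 reached the read minimum through sham alone. In the shallower BCP library, zeros of circRNAs this rare do not show absence, and the interval does not allow for this. Ano5 (3 and 3 reads) and Ano8 (2 and 0) were rare. Clcn3, which encodes a chloride and proton exchanger of endosomes and synaptic vesicles, had a circRNA of only 176 bp with 15 and 5 reads, 2.09-fold lower (0.723 to 7.36). With its other circRNA the gene had 17 and 5 reads. Clcn6, an exchanger of late endosomes, had 3 and 8 reads over 2 circRNAs (3.82-fold, 0.918 to 22.4), also outside the rule.

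Two-pore potassium channels carry the background current that sets the resting potential. Their 8 circRNAs from 3 genes had 277 and 178 reads (ratio 0.921, 0.759 to 1.12). Kcnk2 and Kcnk10 encode the closely related channels TREK-1 and TREK-2, which respond to stretch, heat and lipids, and their circRNAs lay on opposite sides of 1. Kcnk2 had 132 and 66 reads over 4 circRNAs (0.717, 0.525 to 0.970), with an interval below 1 that did not reach 2-fold. Kcnk10 had 100 and 87 reads over 3 (1.25, 0.925 to 1.68). Without the main circRNA of Kcnk10 the class ratio was 0.732 (0.567 to 0.940).

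Kcnk2 made a pair of circRNAs in nearly equal amounts from 1 start on chromosome 13, at 107733302. The shorter (16.2 kb, to 107749528) had 63 and 33 reads and the longer (39.1 kb, to 107772361) had 60 and 29. The shorter took 47.7% of the Kcnk2 reads in sham (39.0 to 56.6) and 50.0% in BCP (37.4 to 62.6), so the balance of the pair differed by less than counting error. A further one (3.54 kb) had 7 and 4 reads. Kcnk10 instead had a single main product of 27.2 kb on chromosome 6 (122463068 to 122490308) with 87 and 81 reads, a ratio of 1.33 (0.974 to 1.83). It ranked 127 in the table and held 87.0% of the Kcnk10 reads in sham (78.8 to 92.9) and 93.1% in BCP (85.6 to 97.4). An 8.74 kb circRNA from the same start had 8 and 6 reads. Kcnk9, which encodes the acid-sensitive channel TASK-3, had 1 circRNA of 952 bp with 45 and 25 reads (0.797, 0.468 to 1.33).

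Potassium channels opened by calcium or sodium had 63 and 54 reads (1.23, 0.838 to 1.796). Kcnma1, the gene of the large-conductance BK channel, gave 52 and 54 of them from 10 circRNAs (1.49, 0.998 to 2.22). With circRNAs listed in both libraries alone, Kcnma1 had 36 and 46 reads, a ratio of 1.83 (1.16 to 2.92) that stayed below 2-fold. Its main circRNA spanned 60.1 kb on chromosome 15 (761401 to 821547) and had 25 and 27 reads (1.55, 0.865 to 2.78). The next, of 23.5 kb (954140 to 977590), had 9 and 13 reads (2.07, 0.819 to 5.49), past 2-fold with an interval that included 1. Kcnt1, the sodium-activated channel named above with Ano3, had 1 circRNA with 8 sham reads and none listed in BCP. Kcnt2 had 3 and 0.

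Voltage-gated potassium channel genes and their subunits had 78 and 76 reads from 19 circRNAs of 10 genes. The ratio was 1.40 (1.01 to 1.94), and the interval included 1 with median-of-ratios scaling (1.30, 0.935 to 1.81) or without the main Kcnh3 circRNA (1.29, 0.849 to 1.97). Kcnh3, a forebrain-rich channel of the ether-a-go-go family, gave more reads than any other gene of the class (35 and 30). Its main circRNA was 297 bp long (chromosome 7, 140828965 to 140829261) with 27 and 30 reads (1.59, 0.915 to 2.79). A pair of longer ones from the same start, with 5 and 3 sham reads, was at 0 in BCP. The short form was thus 77.1% of the Kcnh3 reads in sham (59.9 to 89.6) and 100% in BCP (88.4 to 100), and the interval of the odds ratio excluded 1. That 100% rests on the zeros of the longer pair, which had few sham reads. In the shallower BCP library such zeros do not show absence, and the interval does not allow for this. In the same family, Kcnh1 had a 5.87 kb circRNA (10 and 6 reads) and a 21.6 kb one (6 and 5) from 1 start, with 16 and 13 reads over 3 in all, and Kcnh5 had 11 and 4 over 3.

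Among rarer genes of the class, Kcnc2 had 3 and 4 reads. Of the M-current genes, which brake repetitive firing, Kcnq3 had 4 reads in BCP only and Kcnq5 had 3 in BCP only. Kcna2 had 4 reads in BCP only, and the subunit gene Kcnab1 had 9 and 3. Single-library counts of this size carry no direction at this depth.

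Sodium channel genes had 102 and 63 reads (0.886, 0.636 to 1.22). Scn2a and Scn1a encode pore subunits of central neurons and had 1 circRNA each, on chromosome 3. Scn2a (51813399 to 51817778) had 47 and 26 reads (0.793, 0.472 to 1.31) and Scn1a (52416439 to 52434681) had 31 and 13 (0.601, 0.289 to 1.18). Both intervals included 1. Scn3a had 4 reads in BCP only, from a circRNA that also carried another gene name.

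Nalcn encodes the leak channel that passes a steady inward sodium current. Its 8 circRNAs on chromosome 15 had 24 and 20 reads together (1.19, 0.626 to 2.26), a sum over circRNAs with opposite values. The circRNA that was higher by the size rule spanned 1.64 kb (109820363 to 109822003) and had 4 and 10 reads, 3.58-fold (1.03 to 15.7). Under median-of-ratios and TMM scaling the lower bound was 0.961 and 0.953, so the call was lost. A further circRNA closing at the same end had 0 and 5 reads. Together the pair had 4 and 15 reads (5.38-fold, 1.71 to 22.3). The pair that closed at 109970339 had 9 sham reads and was at 0 in BCP. These pairs were picked after their values were seen. The other Nalcn circRNAs listed in sham only had 2 reads each, and 1 of them (109820363 to 109844147) shares the start of the 1.64 kb circRNA. Within Nalcn, the share of the 1.64 kb circRNA was 16.7% in sham (4.74 to 37.4) and 50.0% in BCP (27.2 to 72.8), an odds ratio of 4.80 (1.06 to 26.6).

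**Figure D5:**
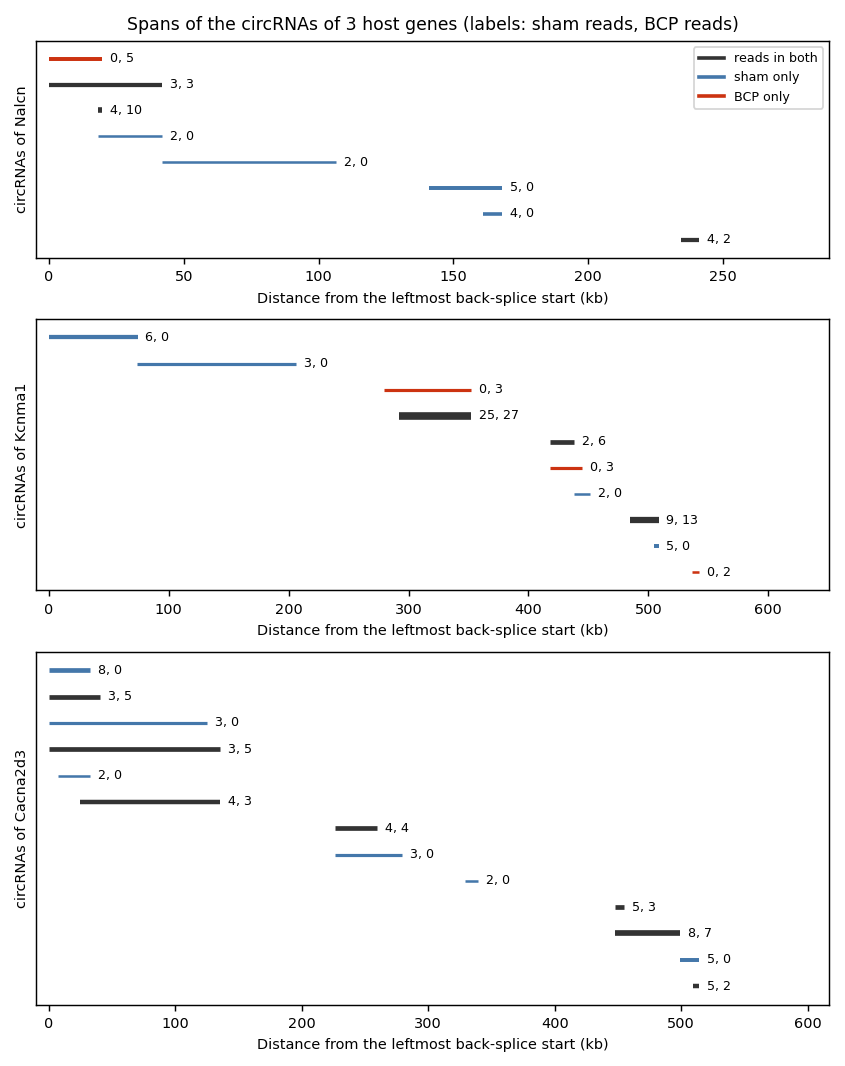
Genomic spans of the circRNAs of Nalcn (8), Kcnma1 (10) and Cacna2d3 (13) in kb from the leftmost back-splice start, with line width growing with reads and labels giving reads in sham and BCP (black, both libraries; blue, sham only; red, BCP only). In Nalcn the BCP-rich circRNAs (0, 5 and 4, 10) lie at the left. Of its 4 sham-only circRNAs, a pair (5, 0 and 4, 0) lies further right, and 1 (2, 0) shares the start of the 4, 10 circRNA. Of the 13 Cacna2d3 circRNAs, 6 are listed in sham only.

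Calcium channel genes other than those left out had 100 and 67 reads from 28 circRNAs of 9 genes (0.961, 0.694 to 1.32). Cacna2d3, an auxiliary subunit gene that has been tied to heat pain in flies, mice and people, had 13 circRNAs with 55 and 29 reads (0.756, 0.465 to 1.21). Of the 13, 6 were listed in sham only and 0 in BCP only. Of all circRNAs, 36.4% were listed in sham only and 22.4% in BCP only, and over all ion channel circRNAs 37.5% and 19.9%. The 7 listed in both libraries had 32 and 29 reads. The 1 with at least 10 reads spanned 51.3 kb on chromosome 16 (5355866 to 5407188) and had 8 and 7 reads. The 13 reached up to 135 kb in span, the longest of all ion channel circRNAs. Cacna2d1, whose product is the binding site of gabapentin and pregabalin, had 9 and 3 reads over 2 circRNAs (0.478, 0.0832 to 1.92), too few to settle a direction.

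Of the pore subunits, Cacna1e (R-type) had 16 and 8 reads over 3 circRNAs, with 12 and 6 in one of 2.24 kb. The T-type genes were rare: Cacna1g had 2 and 5 reads and Cacna1i had 3 and 6, from 3 circRNAs that share 1 start. Cacng7, a subunit gene whose product also escorts AMPA glutamate receptors, had 1 circRNA with 11 and 5 reads (0.652, 0.178 to 2.03). The beta subunit genes Cacnb1 (0 and 2), Cacnb2 (4 and 5) and Cacnb4 (0 and 4) had few reads. The genes left out by name had 43 circRNAs with 256 and 159 reads (0.891, 0.726 to 1.09), and of their 12 with enough reads 3 were higher and 1 was lower. Over the whole table, 7.82% of 3502 were higher and 7.34% were lower. The calls among the 12 include circRNAs listed in 1 library only, and 12 are too few to set these genes apart.

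TRP channels pass cations in response to heat, lipids or emptied calcium stores. The class had 53 and 41 reads from 15 circRNAs (1.11, 0.719 to 1.70). Trpm3, a heat-sensing channel gene, had 21 and 22 reads over 6 circRNAs (1.502, 0.788 to 2.87), with 8 and 11 in one of 89.2 kb on chromosome 1 (240421602 to 240510797). That circRNA had a ratio of 1.97 (0.722 to 5.65). Trpm7, which encodes a channel fused to a kinase, had 21 and 12 reads over 4. Its 2 circRNAs with at least 10 reads were of 1.68 kb (12 and 5 reads; 0.597, 0.165 to 1.82) and 6.33 kb (7 and 5; 1.02, 0.256 to 3.75). Trpm4 (2 and 3), Trpc1 (2 and 4), Trpc4 (4 and 0) and Trpc4ap (3 and 0) were near the smallest count.

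Ryr3, a channel that releases calcium from the endoplasmic reticulum, had 8 circRNAs with 25 and 12 reads (0.688, 0.315 to 1.42) and none with 10 or more. Those listed in both libraries had 12 and 10 reads. The ATP receptor gene P2rx6 had 1 circRNA, with 2 sham reads and none listed in BCP.

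Summed over circRNAs, 24 ion channel genes had at least 10 reads. By the size rule 1 was higher and 1 lower (Ano3) in BCP, and the other 22 met neither side. Of all 2144 host genes with enough reads, 8.82% were higher and 8.49% lower. Both genes were listed in 1 library only, and with circRNAs listed in both libraries alone 0 genes were higher and 0 lower. The ratio was below 1 for 16 of the 24 genes, and the median log2 ratio was -0.36, beside 0.02 over all host genes. Within genes that had several circRNAs, the share of a circRNA in its gene was compared for 29 circRNAs of 13 genes. The odds ratio interval excluded 1 for 3, those of Ano4 (3.60 kb), Kcnh3 (297 bp) and Nalcn (1.64 kb) given above. Shares were compared in ion channel genes alone. No share over the whole table stands beside the 3 of 29, so whether that is many or few was not tested.

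The structure of the ion channel circRNAs was set beside that of the whole table. They shared a start or end with another circRNA in 59.6% of cases (81 of 136), beside 59.9% of all 11599. Reads in both libraries were found for 42.6% and 41.2%, and spans of at most 500 bp made up 7.35% and 6.12%. The median span was 15860 bp for ion channel circRNAs and 9708 bp for all. The 10 circRNAs of at most 500 bp included those of Kcnh3, Clcn3, Kcnh1, Kcnh5, Kcnk10, Kcna2 and P2rx6, and 6 of them were of voltage-gated potassium channel genes. They had 56 and 50 reads, most of them from Kcnh3. Besides Ano4, the genes Kcnma1, Nalcn, Cacna2d3 and Trpm3 each had a stretch of 75 to 175 bp whose first position opened a circRNA and whose last position closed another.

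A list of 77 channel partner genes (anchoring, trafficking and complex subunits, and other channels outside the symbol rule) was set beside them. Of these, 34 hosted circRNAs, with 1426 and 923 reads in all (0.928, 0.853 to 1.01). Of 54 partner circRNAs with enough reads, 1 was higher and 5 were lower in BCP, beside 7.82% and 7.34% of all circRNAs tested. The higher one was of the kinase gene Oxsr1, which regulates ion cotransporters, with 28 reads in BCP only. The lower ones were a pair of the active zone gene Rims1 (71 and 22 reads, and 42 in sham only) and 1 each of the calcium pump gene Atp2a2 (20 in sham only), the anchoring protein gene Akap6 (17 in sham only) and the node of Ranvier gene Cntn1 (10 in sham only). The median log2 ratio was 0.06.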

How the data were processed

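Back-splice junction reads of circRNAs were counted by the authors in 2 spinal cord libraries, 1 of the BCP and 1 of the sham group. The deposited counts are whole numbers. The columns deposited under the heading TPM hold CPM values without a length term: each nonzero value matches the count divided by its library sum (tolerance 0.001 CPM), and zeros stand as 0.001. Per the submitters' processing notes, the rn6 build, BWA and CASAVA 1.8 were used. Which tool called the circRNAs, with what annotation and read minimum, was not given in the sources used here, and a read minimum turns thinly covered circRNAs into 0, more so in the shallower BCP library.

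Members were found by gene symbol after dropping small RNA family names and names spread over 3 Mb; no member name was lost this way and 1 member carried a second gene name. All 45 symbols matched the RefSeq table of GRCr8, used for names alone. Counts were scaled to library totals (Python 3.11.15, scipy 1.17.1). The size rule was run on the whole table. It was tested on simulated data that held counting error alone. Spread between animals and the read minimum behind the zeros were not simulated, so this test does not bear on them. Alternatives were TMM scaling with edgeR 4.0.16, median-of-ratios scaling with DESeq2 1.42.0, read minimums of 5 and 20, a 1.5-fold limit, a pseudocount of 1 read, circRNAs in both libraries, circRNAs with 1 name, and leaving out the main circRNA. Leaving out Ano4 and Ano6 was added after the data were seen. The members, lists and tests were chosen with earlier results of these data known. The text names each member circRNA and host gene with at least 10 reads, each host with at least 3 circRNAs, and the leading host of each class. Some items that this rule takes in are not reported here.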

Additional observations from a re-analysis of the deposited data

How the results depend on the processing

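The counts of ion channel circRNAs that met the size rule were too small to be stable. The count higher in BCP went from 1 to 0 with median-of-ratios scaling, TMM scaling or a minimum of 20 reads, and to 3 with a minimum of 5 reads. The count lower in BCP went from 1 to 3 with a minimum of 5 reads and to 0 with a pseudocount of 1 read, without Ano4, or without Ano4 and Ano6. The summed ratio of 0.925 became 0.860 with median-of-ratios and 0.853 with TMM scaling, both with intervals below 1. The median log2 ratio of -0.32 became -0.42 and -0.43, which is the shift of -0.10 and -0.12 that these scalings give every circRNA. For host genes, the count higher fell from 1 to 0 with a minimum of 20 reads or with circRNAs in both libraries alone. The count lower became 2 with a minimum of 5 reads or a 1.5-fold limit, and 0 with a minimum of 20 reads or circRNAs in both libraries alone. By class, the two-pore ratio was 0.732 and the store release ratio 0.391 without their main circRNA, and the calcium- or sodium-activated ratio was 1.83 with circRNAs in both libraries, each with an interval that excluded 1. The voltage-gated potassium ratio of 1.40 lost that under median-of-ratios (1.30) and TMM (1.29) scaling, with circRNAs in both libraries (1.29) and without its main circRNA (1.29). Of 57 single circRNAs and host genes, 56 stayed higher, lower or neither as before under both scalings, and the Nalcn circRNA lost its call. Most of the 57 had no call to lose: 1 circRNA and 1 gene were higher, and 1 circRNA and 1 gene were lower. No paired analysis was possible because each group had 1 library. At this depth 1 read is 8.85 CPM in sham and 12.7 in BCP, and 103 of the 136 members were too thinly covered for the size rule.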
